A study of Mus musculus with 6 samples.

Results

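The genes described here are the mouse genes named Zfp and a number, a symbol given mostly to C2H2 zinc finger genes, whose messenger RNA carried edits in every library of a ribosome-editing experiment. Members were selected on their EPR, the number of edits per read of a gene: they are the protein-coding genes with such a symbol in the GENCODE annotation and an EPR above 0 in all 6 libraries. Of 365 protein-coding genes with such a symbol in the files, 155 (42.5%) were members. All protein-coding genes listed met the same requirement in 36.2% of 21897 cases. Because the rule uses EPR itself, the count and the levels of the members are a description and were not tested. A gene at 0 in a single library could not be a member, however far apart its other values were.

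The study expressed Ribo-STAMP, in which the cytidine deaminase rAPOBEC1 is fused to a ribosomal protein and leaves C-to-U edits on the mRNAs that the tagged ribosomes meet. Primary cortical neurons of wild-type (WT) C57BL/6J mouse embryos at embryonic day 18 (E18) received floxuridine against dividing cells, were infected with adeno-associated virus (AAV) at day in vitro (DIV) 6, were given 1 µg/ml doxycycline (Dox) for 48 h and were collected at DIV 14. The 2 groups of 3 bulk RNA-seq libraries each differed in the fusion. In RPL10A-STAMP the Rpl10a reading frame was joined to the C terminus of APOBEC1, and in RPL22-STAMP the Rpl22 reading frame was joined to its N terminus. A synapsin promoter drove the reverse transactivator that Dox switches on, so the fusion was directed to neurons, while RNA was taken from the whole culture. No library without a fusion was analysed here, so background editing was not subtracted. The study calls its replicates technical in one passage and biological in another, and the labels name no separate cultures, so p-values measure the spread between these samples only, which may be technical.

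C2H2 zinc fingers are short modules held together by a zinc ion between a pair of cysteines and a pair of histidines, and arrays of them bind DNA or, in some proteins, RNA. Many of the genes lie in clusters that grew by duplication, and many of their proteins begin with a KRAB domain. KRAB recruits the corepressor TRIM28, which brings the histone methyltransferase SETDB1 and heterochromatin proteins to the bound site, and KRAB proteins are best known for silencing transposable elements and for keeping imprints. The SCAN domain, found in a smaller group, joins zinc finger proteins to each other.

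A KRAB domain was found, by a score on the translated sequence, in 77 of the 155 members and in 213 of the 365 genes listed. Members therefore made up 36.2% of the KRAB genes and 51.3% of the 152 genes without KRAB. Genes without KRAB are those in which none was found, so a domain of low score would be missed. SCAN was found in 8 members of 13 listed. Members held a median of 11 fingers, from 36 in Zfp142 to 0 in Zfp330 and Zfp365, which are members by their symbol alone, and 12 held fewer than 3. Another Zfp gene lay within 500 kb of 88 members.

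The fingers are joined by a conserved linker, a run of amino acids that most members share, while its codons vary. At least 1 copy of this canonical finger linker was read in the coding sequence of 120 members (77.4%), against 2.6% of the 7921 tested genes with a coding sequence. Of the KRAB members, 76 had one. Across the members there were 713 copies in 384 forms of 21 bases, so few forms were shared. The 4 forms held by most members are shown because they are the stretches that recur most widely among these transcripts. They are printed 5′ to 3′ as in the mRNA, with the 15 bases of the linker codons in capitals.
Form held by 9 members, with 30 copies: catACAGGAGAGAAACCTtac
Form held by 9 members, with 9 copies: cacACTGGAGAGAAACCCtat
Form held by 8 members, with 31 copies: catACAGGAGAGAAACCCtat
Form held by 8 members, with 20 copies: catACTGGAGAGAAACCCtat
The next sequences are the first linkers of members whose EPR differed between the fusions, with their place in GRCm38 (mm10). The first 4 genes were higher with RPL10A-STAMP and the last 2 with RPL22-STAMP.
Zfp26, chr9:20437983-20438003, minus strand: catACGGGAGAGAAGCCGtat
Zfp182, chrX:21031159-21031179, minus strand: catACAGGAGAGAAACCAttt
Zfp711, chrX:112632849-112632869, plus strand: catACTGGTGAGAAGCCAtat
Zfp101, chr17:33381623-33381643, minus strand: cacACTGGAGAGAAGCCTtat
Zfp641, chr15:98288907-98288927, minus strand: cacACTGGAGAGAGGCCCtac
Zfp142, chr1:74569727-74569747, minus strand: cacACTGGGGAAAAGCCTtac
The capitals of each of these 6 hold 3 or 4 cytosines, the base that APOBEC1 edits. Across the 120 members with a linker, the GC content of the linkers followed that of the whole transcript (a Spearman's rho of 0.751 over genes, not independent of one another). The values deposited are 1 per gene, so no edit could be placed on a linker.

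More Zfp genes were edited in each RPL10A-STAMP library than in any RPL22-STAMP library. Of the 365 Zfp genes, 270, 259 and 259 were edited in the 3 RPL10A-STAMP libraries, and 220, 240 and 220 in the 3 RPL22-STAMP libraries. All 3 RPL10A-STAMP libraries held edits in 228 Zfp genes, and all 3 RPL22-STAMP libraries in 167, which was not counted over all genes. Over all genes the libraries overlapped, with 10518, 10610 and 10725 edited genes against 10033, 11195 and 9892. Among the 56 Zfp genes edited in exactly 5 libraries, the library at 0 was an RPL10A-STAMP library for 2, 4 and 4 genes and an RPL22-STAMP library for 26, 8 and 12 genes. Over all genes, 8046 were edited in all 6 libraries. With RPL10A-STAMP replicates 1, 2 and 3 left out in turn, 8214, 8209 and 8172 were edited in all the others. With the RPL22-STAMP replicates left out, these were 8387, 8139 and 8430. Whether the Zfp genes differed from all genes in this was not tested. A value of 0 can mean no edit or no read, and the reads behind each value are unknown. A further 57 Zfp genes were listed at 0 in every library.

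The median EPR of the 155 members was 0.0111, 0.0167 and 0.0171 in the RPL10A-STAMP libraries and 0.00719, 0.0117 and 0.00884 in the RPL22-STAMP libraries. Replicate 2 of RPL22-STAMP lay above the lowest RPL10A-STAMP library, so the medians overlapped. Relative to the median of the 8046 genes edited in all libraries, members stood at 0.929, 1.09 and 1.06 with RPL10A-STAMP against 0.793, 0.910 and 0.787 with RPL22-STAMP. On this relative scale every RPL10A-STAMP library was above every RPL22-STAMP library.

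The gap was larger in the KRAB members. Their relative median was 1.23, 1.61 and 1.53 with RPL10A-STAMP against 0.817, 0.924 and 0.824 with RPL22-STAMP. For the 78 members without KRAB it was 0.803, 0.891 and 0.772 against 0.774, 0.900 and 0.742, and the libraries of the fusions overlapped.

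**Figure D1:**
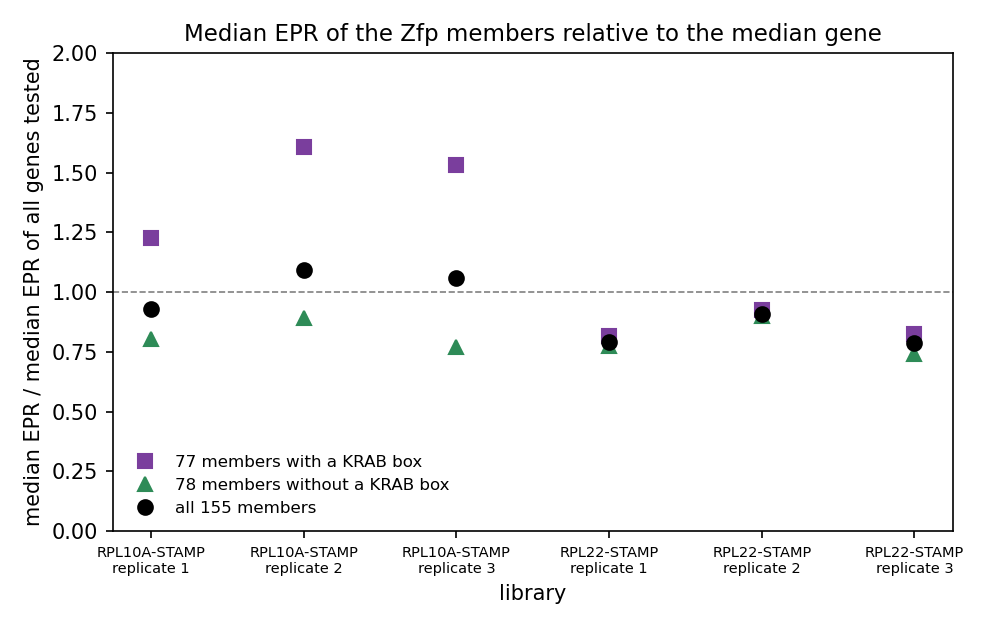
Median EPR of the Zfp members divided by the median EPR of all 8046 genes edited in every library (vertical axis, no unit), for each of the 6 libraries (horizontal axis), with KRAB members, members without KRAB and all members as separate series. The KRAB members stand at 1.23 to 1.61 in the RPL10A-STAMP libraries and at 0.817 to 0.924 in the RPL22-STAMP libraries, while the members without KRAB stay below 1 in all 6 libraries.

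Members varied more between replicate libraries than the typical gene. The median coefficient of variation of EPR was 36.5% over the RPL10A-STAMP libraries and 42.5% over the RPL22-STAMP libraries, against 28.0% and 32.1% over all genes tested. Spearman's rho of EPR between libraries, taken across the 155 genes, was 0.706 to 0.815 within RPL10A-STAMP, 0.377 to 0.563 within RPL22-STAMP and 0.320 to 0.464 between the fusions. Over all genes tested it was 0.778 to 0.809, 0.669 to 0.725 and 0.516 to 0.575 in the same order. Within RPL22-STAMP the members therefore agreed less well than all genes.

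To ask which members differed between the fusions, limma was fitted to log2(EPR + 0.01) of all 8046 genes after each library was scaled to a common median, and p-values were adjusted by Benjamini-Hochberg over all of them. The log2 fold change (log2FC) is RPL10A-STAMP minus RPL22-STAMP on that scale, which understates the change of genes of low EPR. At an adjusted p under 0.05, 21 members (13.5%) were higher with RPL10A-STAMP, against 8.51% of all genes tested. Only 2 members (1.29%) were higher with RPL22-STAMP, against 5.77% of all genes. The log2FC was positive for 95 members and negative for 60, with a median of 0.129 against -0.012 over all genes. The scaled libraries of the fusions did not overlap for any of the 23 genes called. The calls rest on the same scaled values, so this is no separate support for them. As deposited, 53 members (34.2%) had all 3 RPL10A-STAMP values above all 3 RPL22-STAMP values, against 28.2% of all genes, and 2 (1.29%) the opposite, against 6.21%. After scaling, 43 members (27.7%) were apart in that direction, against 20.0% of all genes, and 10 (6.45%) the opposite, against 17.1%. Without scaling, when the median log2FC of all genes moves to 0.182, 30 members (19.4%, against 11.9% of all genes) were higher with RPL10A-STAMP and 1 (0.645%, against 1.60%) with RPL22-STAMP, and the RPL10A-STAMP share of all calls went from 59.6% to 88.1%. The count of 21 fell with any library left out: it was 12, 6 and 7 without RPL10A-STAMP replicates 1, 2 and 3, and 12, 14 and 8 without RPL22-STAMP replicates 1, 2 and 3. In that order these are 7.74%, 3.87%, 4.52%, 7.74%, 9.03% and 5.16% of the members, against 4.94%, 3.05%, 2.73%, 5.74%, 5.31% and 3.95% of all genes tested in the same fits. The count of 2 was 0, 0 and 1, then 5, 0 and 2, in the same order. These are 0%, 0%, 0.645%, 3.23%, 0% and 1.29% of the members, against 2.87%, 2.06%, 1.62%, 3.57%, 3.60% and 2.61% of all genes.

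**Figure D2:**
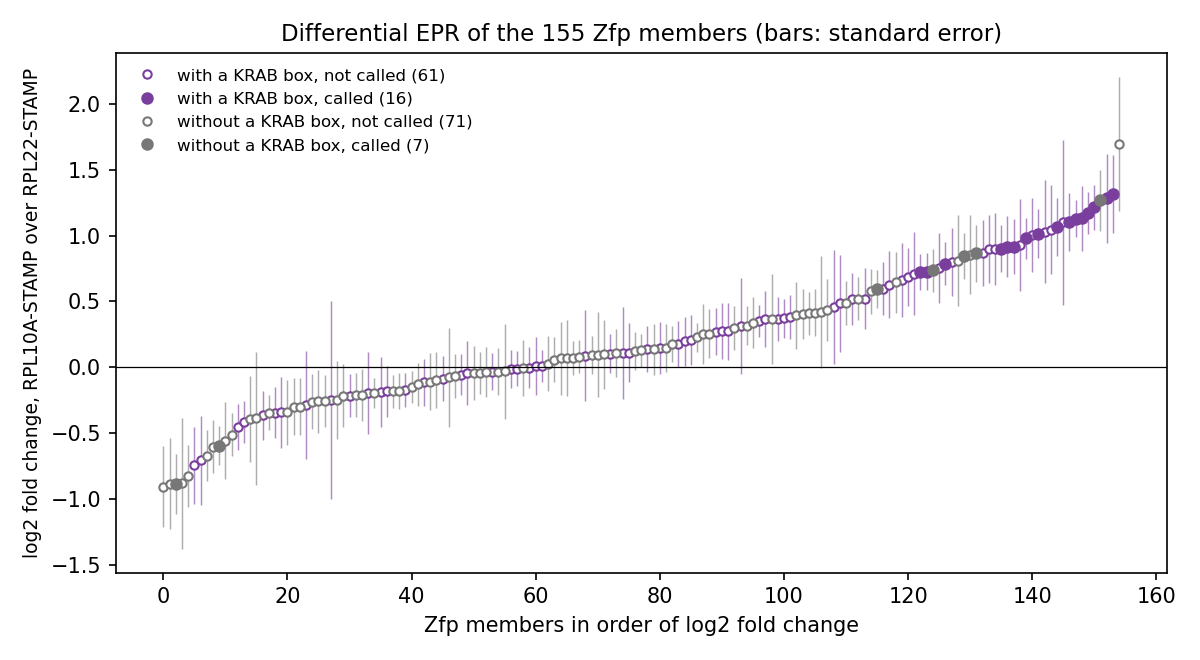
The log2FC of EPR between the fusions (vertical axis, log2 of EPR + 0.01 after scaling) of the 155 Zfp members in rank order (horizontal axis), with standard errors as bars, filled points for called genes and colour for KRAB. Calls higher with RPL10A-STAMP, 21 in number, lie at the positive end, and the 2 calls higher with RPL22-STAMP lie below 0.

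KRAB members made up most of the calls. Of 77, 16 (20.8%) were higher with RPL10A-STAMP and 0 with RPL22-STAMP in limma at the adjusted threshold, against 8.51% and 5.77% of all genes. At an unadjusted p under 0.05 they were 32 (41.6%) and 3 (3.90%), against 17.1% and 13.8% of all genes. Their log2FC was positive for 55, with a median of 0.365. Of the 78 members without KRAB, 5 (6.41%) were higher with RPL10A-STAMP and 2 with RPL22-STAMP, with a median of 0.042. Those 5 were Zfp711, Zfp292, Zfp318, Zfp365 and Zfp654, the last of which was named after its values were seen. None of the 8 SCAN members was called by limma, with 0 and 1 at an unadjusted p under 0.05, and their median log2FC was -0.169. The difference between members with and without KRAB was not tested.

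Transcripts of the KRAB members were poorer in G and C. Their median GC content was 41.1%, against 48.0% for members without KRAB and 48.9% over the genes tested. Over the 155 members, GC content and log2FC ran in opposite directions (Spearman's rho -0.58 across genes, and -0.47 over 8039 genes with a transcript). EPR itself ran against GC content with RPL10A-STAMP and showed little relation to it with RPL22-STAMP. Across members, rho was -0.40, -0.40 and -0.47 in the RPL10A-STAMP libraries and 0.02, 0.04 and 0.10 in the RPL22-STAMP libraries. Over all genes tested the pattern was alike, at -0.31, -0.33 and -0.35 against -0.02, 0.01 and 0.04.

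**Figure D3:**
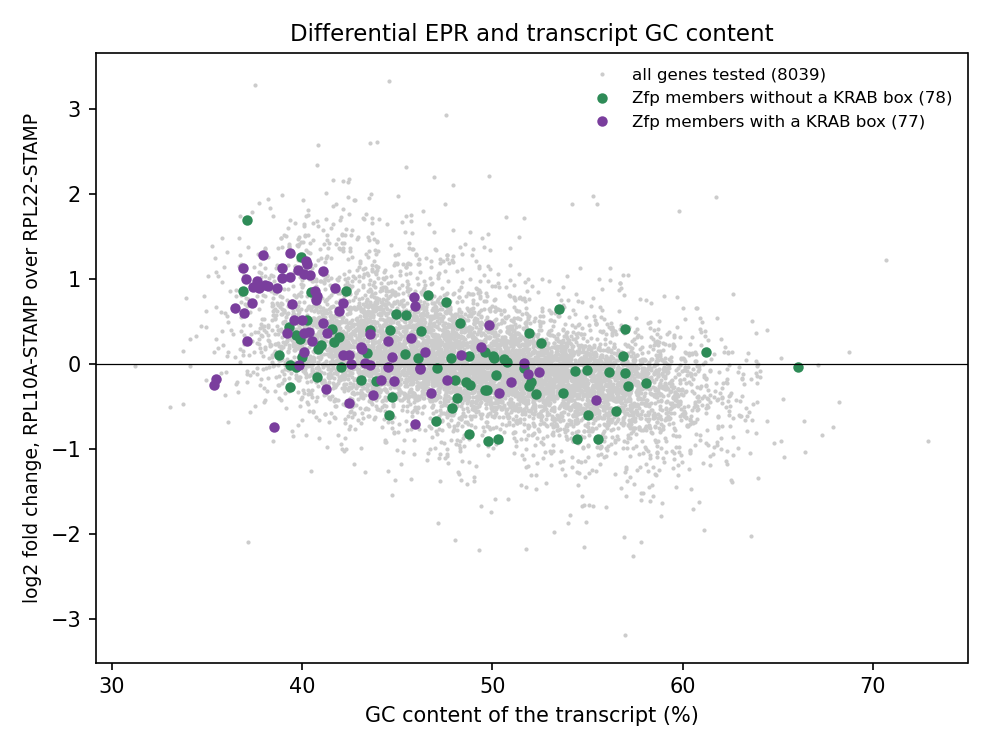
The log2FC of EPR between the fusions (vertical axis) against the GC content of the transcript in percent (horizontal axis) for all genes tested and, in colour, the Zfp members with and without KRAB. The points fall from left to right for the members as for all genes, and the KRAB members lie to the left, with a median GC content of 41.1%.

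The 2010 tested genes of lowest GC content, up to 44.5%, held 81 of the 155 members and 18 of the 21 called higher with RPL10A-STAMP. There 22.2% of the members were called higher with RPL10A-STAMP, against 21.5% of all 2010 genes, and the median log2FC was 0.408 for members and 0.271 for all genes. Among these, 15 of 56 KRAB members (26.8%, median 0.612) and 3 of 25 members without KRAB (median 0.256) were called higher with RPL10A-STAMP. When the trend of EPR with GC content was removed from each library before the fit, 4 members (2.58%) were higher with RPL10A-STAMP, against 4.47% of all genes, and 3 (1.94%) were higher with RPL22-STAMP, against 3.78%. The 4 were Zfp182, Zfp26, Zfp933 and Zfp365, and the 3 were Zfp24, Zfp811 and Zfp945. The last 3 were named after their values were seen. With that trend removed, the median log2FC was 0.043 for all members, 0.109 for KRAB members and -0.040 for the rest. Whether GC content itself has a part in the difference was not tested.

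Zfp26, a KRAB zinc finger gene (ENSMUSG00000063108, chr9:20428449-20460162, minus strand), had an EPR of 0.0384, 0.0338 and 0.0441 with RPL10A-STAMP against 0.00534, 0.0110 and 0.00925 with RPL22-STAMP. Every RPL10A-STAMP library was above 0.03 and every RPL22-STAMP library at or below 0.0110, so the fusions lay apart. Here and for the genes that follow, values before "against" are RPL10A-STAMP replicates 1 to 3 and values after it RPL22-STAMP replicates 1 to 3. The means were 0.0388 ± 0.00516 and 0.00853 ± 0.00289 (SD, n = 3 each), a 4.55-fold difference with a log2FC of 1.17 (SE 0.16, adjusted p = 0.00576).

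Zfp182, the KRAB member with the smallest adjusted p (ENSMUSG00000054737, chrX:21028939-21062316, minus strand), had an EPR of 0.0229, 0.0290 and 0.0394 with RPL10A-STAMP against 0.00379, 0.00692 and 0.00676 with RPL22-STAMP. The groups did not overlap, and the RPL22-STAMP libraries were all below 0.007. The log2FC was 1.13 (SE 0.14, adjusted p = 0.00490), from means of 0.0304 ± 0.00832 and 0.00582 ± 0.00176 (SD, n = 3 each).

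Zfp933 (ENSMUSG00000059423, chr4:147822986-147848366, minus strand) also encodes a KRAB protein. Its EPR was 0.0434, 0.0700 and 0.0850 with RPL10A-STAMP against 0.0108, 0.0213 and 0.0177 with RPL22-STAMP, with all RPL10A-STAMP libraries the higher. The log2FC was 1.21 (SE 0.17, adjusted p = 0.00637). These 3 genes are also among the 4 called with the GC trend removed, at adjusted p = 0.0309 for Zfp26, 0.0265 for Zfp182 and 0.0281 for Zfp933.

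No KRAB domain was found in Zfp711 (ENSMUSG00000025529, chrX:112600526-112635070, plus strand), and its human counterpart is mutated in X-linked intellectual disability. Its EPR was 0.0268, 0.0411 and 0.0202 with RPL10A-STAMP against 0.00207, 0.00752 and 0.00338 with RPL22-STAMP. The lowest RPL10A-STAMP library was above the highest RPL22-STAMP library. The log2FC was 1.27 (SE 0.23, adjusted p = 0.0153), a 6.79-fold difference of the means, and with the GC trend removed the adjusted p was 0.0589.

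Zfp101 (ENSMUSG00000055240, chr17:33360507-33394641, minus strand) had the highest log2FC among the called members, 1.31 (SE 0.30, adjusted p = 0.0301). Its EPR was 0.0251, 0.0359 and 0.0694 with RPL10A-STAMP against 0.0107, 0.00321 and 0.00741 with RPL22-STAMP. The fusions did not overlap, but the RPL10A-STAMP libraries were spread widely, with a mean of 0.0434 ± 0.0231 (SD, n = 3). Zfp958 (ENSMUSG00000058748, chr8:4613167-4630231, plus strand) had a similar spread, with 0.0182, 0.0520 and 0.0623 against 0.00977, 0.0116 and 0.00214 and a log2FC of 1.28 (SE 0.34, adjusted p = 0.0473). Both genes encode KRAB proteins, and neither passed with the GC trend removed.

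The other KRAB members named by rank were Zfp938 and Zfp983. Zfp938 (ENSMUSG00000062931, chr10:82224850-82241280, minus strand) had an EPR of 0.0321, 0.0460 and 0.0407 with RPL10A-STAMP against 0.0145, 0.00720 and 0.00554 with RPL22-STAMP (log2FC 1.13, SE 0.25, adjusted p = 0.0275). Zfp983 (ENSMUSG00000035868, chr17:21650624-21664966, plus strand) had 0.0279, 0.0685 and 0.0554 against 0.0109, 0.0172 and 0.00959 (log2FC 1.10, SE 0.22, adjusted p = 0.0201). In both, all RPL10A-STAMP libraries were above all RPL22-STAMP libraries.

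Zfp641 and Zfp142 were the members called higher with RPL22-STAMP. The score found no KRAB domain in either. A domain below the cut would have been missed, so the count of 0 KRAB members higher with RPL22-STAMP rests on that score. Zfp641 (ENSMUSG00000022987, chr15:98285585-98296161, minus strand) had an EPR of 0.00313, 0.00223 and 0.00217 with RPL10A-STAMP against 0.0163, 0.0101 and 0.00714 with RPL22-STAMP, and the groups did not overlap. Its log2FC was -0.89 (SE 0.23, adjusted p = 0.0433). Zfp142 (ENSMUSG00000026135, chr1:74565127-74588246, minus strand), whose human counterpart is mutated in a neurodevelopmental disorder, had 0.00535, 0.00992 and 0.00442 against 0.00878, 0.0157 and 0.0121. One RPL10A-STAMP library was above the lowest RPL22-STAMP library as deposited, and the libraries came apart only after scaling. Its log2FC was -0.60 (SE 0.15, adjusted p = 0.0419).

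**Figure D4:**
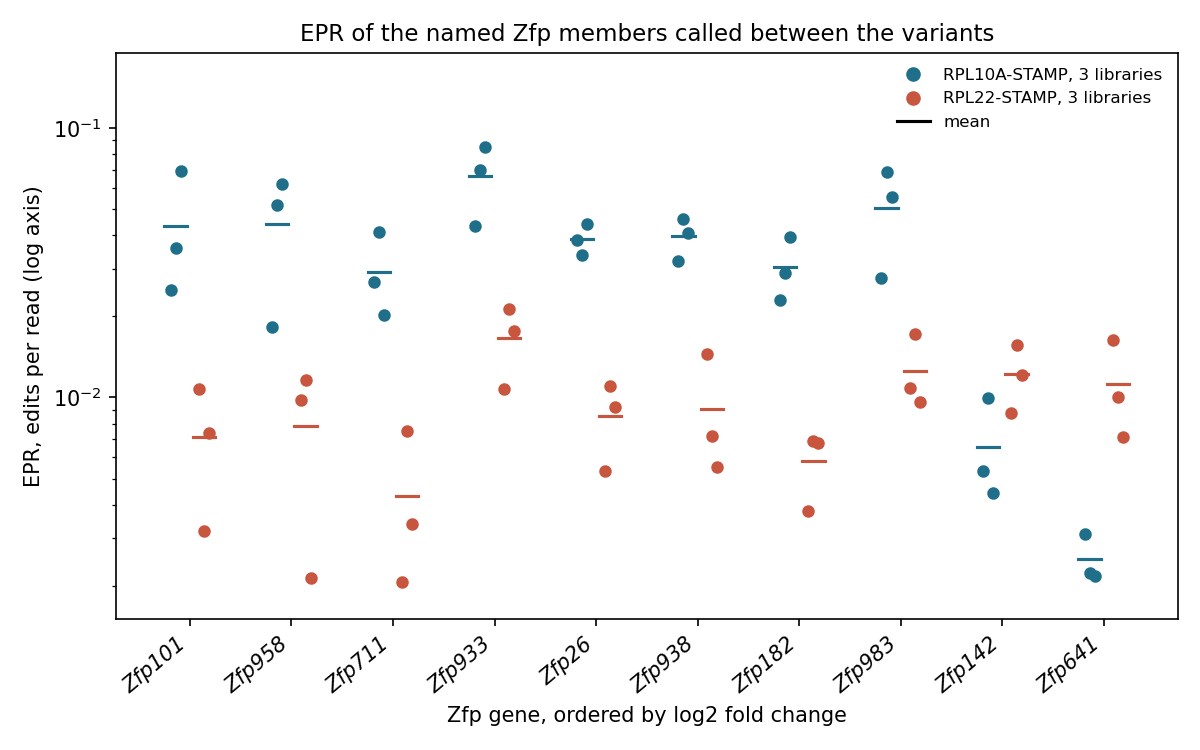
EPR (vertical axis, edits per read, log axis) of the 10 named Zfp members called between the fusions, ordered by log2FC (horizontal axis), with each library as a point and the mean of each fusion as a line. In 8 genes every RPL10A-STAMP library lies above every RPL22-STAMP library, Zfp641 shows the reverse, and the points of Zfp142 overlap as deposited.

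Members with a described role were taken from a list of 34 Zfp genes, of which 24 were edited in all 6 libraries. Limma called 3 of the 24 (12.5%, against 8.51% of all genes), all higher with RPL10A-STAMP, and no KRAB domain was found in them. Zfp292, whose human counterpart is mutated in a neurodevelopmental disorder (ENSMUSG00000039967, chr4:34803113-34882960, minus strand), had an EPR of 0.0153, 0.0274 and 0.0335 against 0.00688, 0.00542 and 0.00680 (log2FC 0.85, SE 0.17, adjusted p = 0.0223). Zfp318, a regulator of immunoglobulin D expression in B cells (chr17:46383731-46420920, plus strand), had 0.0152, 0.0193 and 0.0204 against 0.00553, 0.00975 and 0.00419 (log2FC 0.59, SE 0.15, adjusted p = 0.0385). Both had the RPL10A-STAMP libraries on top without overlap. Zfp365, also called DBZ, a protein that binds DISC1 (chr10:67886103-67912662, minus strand), had 0.0281, 0.0458 and 0.0371 against 0.00849, 0.0157 and 0.0168 (log2FC 0.74, SE 0.16, adjusted p = 0.0279). Its fusions did not overlap either, and with the GC trend removed its adjusted p was just under the threshold.

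Among the 21 role members not called, most had libraries that overlapped between the fusions. Zfp91, an E3 ubiquitin ligase of NF-kB signalling, had 0.0243, 0.0230 and 0.0281 against 0.0213, 0.0214 and 0.0284. Zfp462, linked to heterochromatin, had 0.0103, 0.0108 and 0.00969 against 0.00754, 0.0146 and 0.00921, and Zfp106, an RNA-binding protein of motor neurons and muscle, had 0.0103, 0.00944 and 0.0110 against 0.00442, 0.0122 and 0.0102. The libraries of the fusions overlapped in all of these. Zfp521, a factor of early neural development, had 0.0268, 0.0314 and 0.0286 against 0.0226, 0.0118 and 0.0299, and Zfp536, a repressor of neuronal differentiation, had 0.0101, 0.0309 and 0.0233 against 0.0216, 0.00865 and 0.0115. Zfp809, the KRAB protein that silences murine leukaemia retroviruses, had 0.0168, 0.0416 and 0.0466 against 0.0302, 0.0105 and 0.0161. These overlapped too, and no call was made for them.

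Zfp638, which silences unintegrated retroviral DNA together with the HUSH complex, had 0.00581, 0.00546 and 0.00905 against 0.00299, 0.00307 and 0.00309. Its libraries did not overlap, yet its adjusted p was 0.213. Zfp706, a repressor of Klf4 in embryonic stem cells, had 0.0185, 0.0195 and 0.0206 against 0.0112, 0.0143 and 0.0134, also without overlap and with an adjusted p of 0.533. Zfp609, a gene of neural progenitors, had 0.00663, 0.0102 and 0.0116 against 0.00783, 0.0135 and 0.0137, which overlapped as deposited (adjusted p = 0.129).

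The role genes outside the members were each at 0 in at least 1 library. Zfp36, which binds AU-rich elements of mRNAs, was at 0 in all 6 libraries, and Zfp423 was edited in 1, Zfp831 in 2 and both Zfp568 and Zfp598 in 3. Zfp57, a keeper of imprints, was edited in 5 libraries, as were Zfp335 and Zfp703, while Zfp326 and Zfp622 were edited in 4.

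Zfp973 had the highest mean EPR and was the only member above 1 in any library, with 0.625, 1.13 and 3.33 with RPL10A-STAMP against 0.800, 0.316 and 0.409 with RPL22-STAMP. The fusions overlapped (adjusted p = 0.279). Of its transcript, 88.7% lies in runs of 50 bases that also occur in transcripts of another gene, with Zfp965 sharing most, and reads that fit several places could be counted in either. Zfp991, 87.0% of which is shared in this way, had 0.0408, 0.0946 and 0.117 against 0.0244, 0.341 and 0.0380, and RPL22-STAMP replicate 2 was far above the rest. In all, 6 members were shared over more than 50% of their transcript, namely Zfp931, Zfp932, Zfp970, Zfp973, Zfp984 and Zfp991, some of them named after their values were seen, and their values are uncertain. None of the 6 was called in limma, against 8.51% and 5.77% of all genes in the 2 directions, and so few genes cannot show a difference from these shares. At an unadjusted p under 0.05, 2 (33.3%) were higher with RPL10A-STAMP and 1 (16.7%) with RPL22-STAMP, against 17.1% and 13.8% of all genes. No such run was shared by 74 members.

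The next highest means belonged to Zfp384, a factor also known as CIZ, and Zfp72. Zfp384 had 0.0502, 0.0537 and 0.0446 against 0.0144, 0.0726 and 0.0567, and Zfp72 had 0.101, 0.0308 and 0.110 against 0.0185, 0.0138 and 0.00334. The libraries of Zfp384 overlapped, while those of Zfp72 did not as deposited but missed the threshold (adjusted p = 0.0687). At the other end, Zfp507 had 0.00201, 0.00299 and 0.00298 against 0.00823, 0.00833 and 0.00357, with every RPL22-STAMP library the higher and an adjusted p of 0.0811. Zfp281, a factor of pluripotent cells, had 0.00424, 0.00581 and 0.00381 against 0.00567, 0.00581 and 0.00403, and Zfp35 had 0.00413, 0.00573 and 0.00396 against 0.00348, 0.00687 and 0.00599. Both overlapped between the fusions.

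The members closest to the threshold of 0 were Zfp592, whose lowest value was 0.00149, Zfp157 at 0.00155 and Zfp949 at 0.00158. Just outside it, the genes of highest mean EPR with a single library at 0 were Zfp781, with 1.60, 1.44 and 0.273 against 0.143, 0.500 and 0, Zfp433, with 0.710, 0.522 and 0.708 against 0, 0.148 and 0.108, and Zfp993, with 0.333, 0.111 and 0.208 against 0, 0.167 and 0.167. The mean of each of these was above that of every member except Zfp973.

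Among chromosomes with more than 3 members, chromosome 17 had the highest median log2FC, a grouping made after the values were seen and given without a test. The chromosome holds 41 of the listed Zfp genes and 22 members, of which 20 have KRAB and 19 have a Zfp gene within 500 kb. Their log2FC was positive for 20 and had a median of 0.718, and 7 (31.8%) were called higher with RPL10A-STAMP, against 8.51% of all genes and 21.5% of the 2010 genes of lowest GC content, among which 19 of the 22 lie. Their median GC content was 39.4%. With the GC trend removed, limma called none higher with RPL10A-STAMP, against 4.47% of all genes. It called 2 (9.09%) higher with RPL22-STAMP, against 3.78% of all genes. Chromosome 7 holds more listed genes, 89, and 24 members, with a median log2FC of 0.095. Of these members 2 (8.33%) were called higher with RPL10A-STAMP, near the 8.51% of all genes. Of the 3 members on the X chromosome, Zfp711 and Zfp182 were called.

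**Figure D5:**
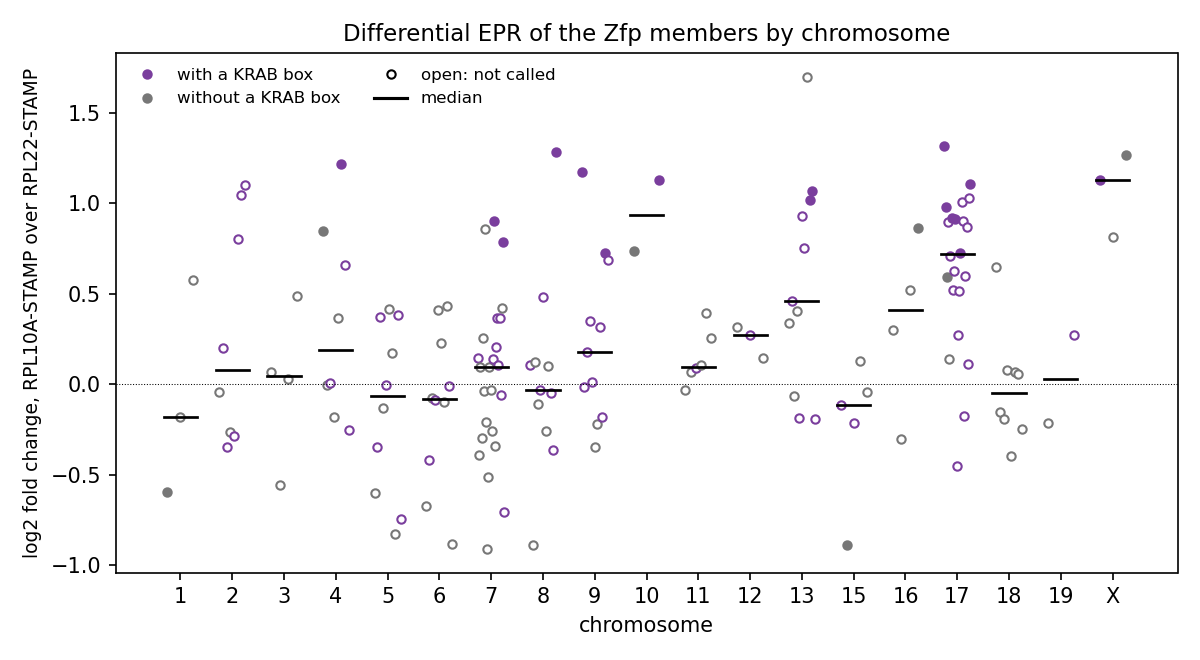
The log2FC of EPR between the fusions (vertical axis) of the Zfp members by chromosome (horizontal axis), with 1 point per gene, KRAB members and calls marked, and the median of each chromosome. Of the 22 members on chromosome 17, 20 lie above 0, around a median of 0.718, while the 24 members on chromosome 7 have a median of 0.095.

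The genes that KRAB proteins work through were followed as a list of 25 corepressor genes, of which 22 were edited in all libraries. By limma, RPL10A-STAMP was higher for 2 of them (9.09%) and RPL22-STAMP for 1 (4.55%), shares near the 8.51% and 5.77% of all genes, and the median log2FC was 0.025. Trim28, the direct partner of KRAB, had a low EPR of 0.00320, 0.00315 and 0.00185 against 0.00492, 0.00621 and 0.00356 and was not called, although every RPL22-STAMP value was the higher (adjusted p = 0.116). Setdb1 had 0.0229, 0.0583 and 0.0572 against 0.0181, 0.0271 and 0.0195, with 1 RPL10A-STAMP library inside the range of the other fusion (adjusted p = 0.200). Tasor, a HUSH subunit, had 0.0460, 0.0818 and 0.0685 against 0.0120, 0.00840 and 0.0213 (log2FC 1.38, SE 0.25, adjusted p = 0.0148), with no overlap. Atrx, a chromatin remodeller of repeats, had 0.0150, 0.0208 and 0.0240 against 0.00712, 0.00837 and 0.00552 (log2FC 0.59, SE 0.14, adjusted p = 0.0315), also apart. Chd3, a remodeller of the NuRD complex, had 0.00976, 0.0127 and 0.0173 against 0.0169, 0.0219 and 0.0243 and was higher with RPL22-STAMP (log2FC -0.67, SE 0.14, adjusted p = 0.0232), although its deposited values overlapped. The count of 2 was 0 without RPL10A-STAMP replicate 2 or 3 and 1 without RPL22-STAMP replicate 2 or 3, and the count of 1 was kept only without RPL22-STAMP replicate 2.

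Other C2H2 families held fewer genes edited in all libraries. They were 15 of 35 Zbtb genes, 9 of 21 Zscan and Zkscan genes and 9 of 17 Klf genes. In each, limma called 1 gene higher with RPL10A-STAMP (6.67%, 11.1% and 11.1%, near the 8.51% of all genes) and none the other way (5.77% of all genes). At an unadjusted p under 0.05, 1, 1 and 0 were higher with RPL22-STAMP, against 13.8% of all genes. The median log2FC was 0.157, -0.096 and 0.086. No difference between these families and the Zfp members was tested.

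As a check of the labelled cell type, edits were present in all libraries for 5 of 5 neuronal markers (Map2, Rbfox3, Tubb3, Snap25 and Syn1) and for 3 of 4 astrocyte markers, including Gfap at 0.0183 to 0.0294. The other astrocyte marker, Aldh1l1, was edited in 4 libraries. Of the 4 oligodendrocyte markers Mbp was edited in all 6 libraries, Olig2 in 4, Pdgfra in 1 and Mog in none. Of the 4 microglia markers Cx3cr1 was edited in 2 libraries, at up to 0.0364, and Csf1r, P2ry12 and Aif1 were at 0 in every library. EPR is no level of RNA, so the share of other cells, and their part in the Zfp values, was not tested.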

How the data were processed

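EPR, the ratio of edits to reads over the exons of a gene, was deposited by the authors as 1 value per gene for each of 6 libraries. Per the study's methods, adapters were removed from the single-end reads by cutadapt, STAR placed the reads on mm10 and kept those with up to 10 locations, SAILOR found the C-to-U sites and featureCounts gave the reads. The annotation is not given in the sources used here. No read counts come with these ratios, so the depth behind each value is unknown and no counting interval could be given. EPR is not normalised between libraries.

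Gene identifiers were matched to GENCODE M21 (30934 of 31053 matched). Each library was scaled by its median over the 8046 genes edited in all 6, and limma 3.58.1 in R 4.3.3 was fitted to log2(EPR + 0.01) with an intensity trend, two-sided, with Benjamini-Hochberg adjustment at 0.05. An exact permutation test of 3 against 3 cannot go below p = 0.10 and was not used. The script was tested on simulated data. The GC trend was removed per library with a spline of 4 degrees of freedom over 8039 genes. KRAB and SCAN were called at 30 bits or more with log-odds matrices on the translated GENCODE coding sequence, in place of the RefSeq protein that was planned, fingers by the spacing of their cysteines and histidines, and linkers by their codons, placed on GRCm38. Members, gene lists and tests were chosen with earlier results of these data known. The named genes were the called members with libraries apart and the highest or lowest log2FC (up to 8 each way), the 4 highest and 4 lowest means, a list of 34 genes with known roles, the genes nearest the threshold on either side, called corepressors and any member above an EPR of 1. Alternatives were other pseudocounts, no scaling, other filters, the replicate number as a block, removal of GC or length trends, the methods' t-test, leaving out EPR above 1, listed Dox-responsive genes (a shortened list, on which 3 members stood) or copied members, and leaving out each library.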

Additional observations from a re-analysis of the deposited data

How the results depend on the processing

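No called member or corepressor gene whose log2FC is given above reversed it under any of 19 alternatives. These genes were picked because they were called, so a reversal was unlikely from the start and its absence is no separate support. The filters on low values and the replicate block leave the log2FC of a gene as it was. Calls were less stable. Zfp182, Zfp26 and Zfp933 were called under 17 of the 19, Tasor under 14, Zfp711 and Zfp983 under 12, Zfp292 and Zfp365 under 9, Zfp101, Zfp938 and Chd3 under 8, Zfp641 and Atrx under 7, Zfp318 under 6, Zfp958 under 5 and Zfp142 under 4. The cause of the changes below was not tested, apart from what each alternative does by construction.

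Testing genes edited in at least 3 libraries gave 11 members higher with RPL10A-STAMP (9 with KRAB, 7.10% of members against 4.42% of all genes) and 0 with RPL22-STAMP (2.49% of all genes), and 1 corepressor gene higher with RPL10A-STAMP. Testing every gene without a filter gave 6 members (6 with KRAB, 3.87% against 2.84%) and 0 (1.60% of all genes), and 1 and 0 corepressor genes. With the GC trend removed there were 4 members (3 with KRAB, 2.58% against 4.47%) and 0 corepressor genes higher with RPL10A-STAMP. In that limma fit 1 corepressor gene was higher with RPL22-STAMP, against 3.78% of all genes. It was Cbx5 (adjusted p = 0.0236), named after its values were seen. Tasor, Atrx and Chd3 were no longer called (adjusted p = 0.0598, 0.340 and 0.138). With the length trend removed, 1 and 2 of the 22 corepressor genes were higher with RPL10A-STAMP and RPL22-STAMP, against 8.04% and 6.01% of all genes. The methods' t-test on deposited EPR gave 0 members (0 with KRAB) and 0 corepressor genes in both directions after Benjamini-Hochberg adjustment. It gave 0 over all genes too. At an unadjusted p under 0.05 in this t-test, 36 members were higher with RPL10A-STAMP and 1 with RPL22-STAMP. These were 37 of the 155 members, near the 24.8% of all genes that passed in either direction. The split of all genes by direction was not counted. Deposited EPR is not scaled, and the median log2FC of all genes on it was 0.35. The split is therefore not a trait particular to the members. Members higher with RPL22-STAMP numbered 1 (0.645%) with a pseudocount of 0.001, with none, with 0.1 and without scaling, against 5.47%, 5.32%, 5.27% and 1.60% of all genes. Without scaling, 0 corepressor genes were higher with RPL22-STAMP.

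The median log2FC of the members was 0.26 with a pseudocount of 0.001, 0.30 with none, 0.022 with 0.1, 0.32 without scaling, 0.043 with the GC trend removed and 0.65 on the scale of the t-test. For KRAB members it was 0.57, 0.62, 0.074, 0.57, 0.11 and 0.99 in the same order. Over all genes it was -0.020, -0.021, -0.0027, 0.18, 0.0037 and 0.35, so the values without scaling and of the t-test include a shift of all genes. Leaving out each library in turn gave 6 to 14 members higher with RPL10A-STAMP (3.87% to 9.03%, against 2.73% to 5.74% of all genes). Higher with RPL22-STAMP were 0 to 5 members (up to 3.23%, against 1.62% to 3.60% of all genes). KRAB members higher with RPL10A-STAMP numbered 5 to 12, with a KRAB median of 0.28 to 0.47. Corepressor genes numbered 0 to 2 higher with RPL10A-STAMP and 0 to 1 with RPL22-STAMP. Asking for edits in all 3 libraries of at least 1 fusion gave 240 Zfp genes in place of 155.

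The labels number the replicates 1 to 3 in both groups. Same-numbered libraries did not deviate together (correlations of 0.0437, 0.0464 and -0.00546), so the numbers were not taken to pair them. With the replicate block, 10 members (9 with KRAB, 6.45% against 4.60%) were higher with RPL10A-STAMP and 1 (0.645% against 2.90%) with RPL22-STAMP, and 1 and 0 corepressor genes. With the replicate block and the GC trend removed, limma called 0 members (0 with KRAB) and 0 corepressor genes in both directions. Of all genes, 1.65% and 1.17% were called. At an unadjusted p under 0.05 there were 26 and 16 members, 42 in all, while 25.7% of all 8039 genes passed in either direction. The split of all genes by direction was not counted. The median log2FC was 0.043 for members and 0.11 for KRAB members.

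No control library was analysed here and the ratios come without read counts, so background editing and the precision of single EPR values are unknown.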
